A study of Mus musculus with 6 samples.

Results

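Cytosolic ribosomal protein genes were described across the cell classes of a pooled single-cell table from mouse lung. Members were the rows whose symbol begins with Rpl or Rps followed by a digit, without the Rps6k kinases and the rows named -ps, plus Rplp0, Rplp1, Rplp2 and Rpsa. The rule found 87 of 27998 gene rows, 34 of them named for the small (40S) and 53 for the large (60S) ribosomal subunit. It is a rule on names: Rps19bp1, which encodes a protein that binds Rps19, and Rpl7l1, a paralogue of Rpl7, are members by name only. Together the members held 8744029 of 35262820 UMIs (unique molecular identifiers, random tags that mark single RNA molecules before amplification), or 24.8% of the table.

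The cells came from mice carrying SMA-GFP, Tbx4cre and RosaTdTomato. SMA-GFP is a smooth muscle actin reporter, and tdTomato (Tm) marks cells whose lineage expressed Cre from Tbx4, a gene of lung mesenchyme. The 6 labelled samples were d21_SMA+Tm+, d21_SMA-Tm+ and d21_SMA-Tm- on day 21 of the bleomycin model of lung injury and fibrosis, and d0_SMA+Tm+, d0_SMA-Tm+ and d0_SMA-Tm- on day 0, each with 1 library. All were sorted as negative for Epcam, CD31 and CD45, antigens of epithelial, endothelial and blood cells. The lymphocytes, macrophages and endothelial cells described below are of types that this sort was meant to remove. They may not stand for such cells of the lung at large. Age, sex and the number of animals per sample are not given in the labels used here. Barcodes end in a suffix from 1 to 6 that is not tied to a labelled sample, so day, bleomycin and sort gate could not be compared. The table was read as 1 pooled sample, with no test and no p-value, and a suffix appears only as a part of the table.

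Ribosomal proteins are made in near-equal numbers, because each ribosome holds a single copy of most of them. The exception is the acidic P proteins, which form the stalk that recruits elongation factors. Most ribosomal protein mRNAs begin with a C followed by a run of pyrimidines, the 5′ TOP tract, through which translation responds to nutrient and growth signals by way of TOR and the RNA-binding protein Larp1. Several members have paralogues or retrogene copies whose products can take the same place in the ribosome.

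Start-site sequences are shown for members on which the results below turn. Each runs from 10 bases before to 20 bases after a RefSeq start (build GRCm38.p6, gene strand), and capitals mark the longest tract of a C followed by at least 4 bases that are each C or T. Rps27 and its retrogene copy Rps27rt share the bases after the tract.
Rps27, chr3:90213629-90213658, minus strand: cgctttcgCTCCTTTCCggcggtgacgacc
Rps27rt, chr9:114982720-114982749, minus strand: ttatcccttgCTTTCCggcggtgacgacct
Rps15a, chr7:118116128-118116157, minus strand: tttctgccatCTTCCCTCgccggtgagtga
Rpl12, chr2:32961702-32961731, plus strand: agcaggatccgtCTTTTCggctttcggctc
Rplp2, chr7:141447641-141447670, plus strand: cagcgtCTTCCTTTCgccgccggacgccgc
Rpl22l1, chr3:28805498-28805527, plus strand: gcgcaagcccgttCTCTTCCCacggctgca
Rpl7l1, chr17:46782637-46782666, minus strand: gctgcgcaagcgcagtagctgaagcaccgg
Rps19bp1, chr15:80264287-80264316, minus strand: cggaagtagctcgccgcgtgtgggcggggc
Rpl4, chr9:64173377-64173406, plus strand: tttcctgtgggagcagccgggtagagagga

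A tract that began in the first 20 bases of this window stood at a start of 40 of the 66 members with a promoter entry (60.6%), against 9007 of 27025 genes in the promoter table (33.3%). It was searched on the gene strand only. Rps27, Rps27rt, Rps15a, Rpl12, Rplp2 and Rpl22l1 have one, and Rpl7l1, Rps19bp1 and Rpl4 have none in this window. The longest run shared by the 300-base promoter entries of Rps27 and Rps27rt was 38 bases, against 8 bases for Rps27 and Rps27l and 7 bases for Rpl22 and Rpl22l1.

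Cells were gated by UMIs of a few genes: B lymphocytes by 2 or more of Cd79a, T lymphocytes by 1 or more of Cd3e, macrophages by 2 or more of Krt79 and Ear1, endothelium by 2 or more of Pecam1 and Cdh5, and fibroblasts by 3 or more of the collagen genes Col1a2 and Col3a1. Of 9994 barcodes with at least 500 genes and at most 10% mitochondrial UMIs, 6505 passed 1 gate, 3198 none and 291 more than 1; the last were left out. The suffixes held 691 to 3022 kept barcodes with median depths of 1793.5 to 3649.5 UMIs, and 55 barcode sequences occurred under more than 1 suffix. Summed over its marker list, each class stood far above the other 4. B lymphocytes had 5851 CPM (UMIs scaled to a total of 1000000) against at most 63.1, and T lymphocytes 1916 against at most 38.8. Macrophages had 10917.5 against at most 191, endothelium 7825 against at most 133, and fibroblasts 8427 against at most 77.7. Each list holds the gate genes of its class, and barcodes in more than 1 gate were left out. Part of this gap was therefore set by the gates. Of these sums, the gate gene Cd79a gave 2539 CPM in B lymphocytes and Cd3e 495 CPM in T lymphocytes. Epithelial genes summed to 2102 CPM in the endothelial gate, against 59.9 to 199 CPM in the other classes. Erythroid genes summed to 2273 CPM in T lymphocytes, against 7.22 to 100.4 CPM elsewhere. Both sums were uneven over suffixes. The erythroid sum in T lymphocytes was 5.26 to 12707 CPM with a median of 17.9. The epithelial sum in endothelium was 69.4 to 8664.5 CPM with a median of 951. The part of epithelial and erythroid genes in the results below was not tested.

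Ribosomal protein genes took the largest share of UMIs in lymphocytes. In T lymphocytes (823 cells) they held 39.2% of UMIs and in B lymphocytes (1478 cells) 32.3%. Macrophages (965 cells) stood at 18.7%, fibroblasts (2604 cells) at 18.5% and endothelium (635 cells) at 15.4%. The exact binomial 95% interval was 39.1 to 39.2% in T lymphocytes and 15.4 to 15.5% in endothelium, the smallest class. Intervals here cover counting error only and say nothing of animals.

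The order of lymphocytes over the other classes held in each part of the table. In suffixes 1 to 6 the share was 38.7%, 39.7%, 39.9%, 33.7%, 41.1% and 35.7% in T lymphocytes. In B lymphocytes it was 32.6%, 34.0%, 29.3%, 35.8%, 37.2% and 27.7%. Both ranges lay above those of the other 3 classes, and T lymphocytes stood above B lymphocytes in 5 of 6 suffixes, with suffix 4 the exception.

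Macrophages had shares of 17.4%, 18.2%, 22.0%, 18.4%, 19.1% and 20.2% in these suffixes, the last from 13 cells. Fibroblasts had 16.5%, 17.2%, 17.4%, 19.0%, 15.7% and 9.05%, the last from 32 cells. Endothelium had 13.3%, 15.6%, 15.8%, 13.9%, 17.9% and 14.2%. Macrophages and fibroblasts overlapped across suffixes, as did fibroblasts and endothelium, so the order among these classes was not the same everywhere.

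**Figure D1:**
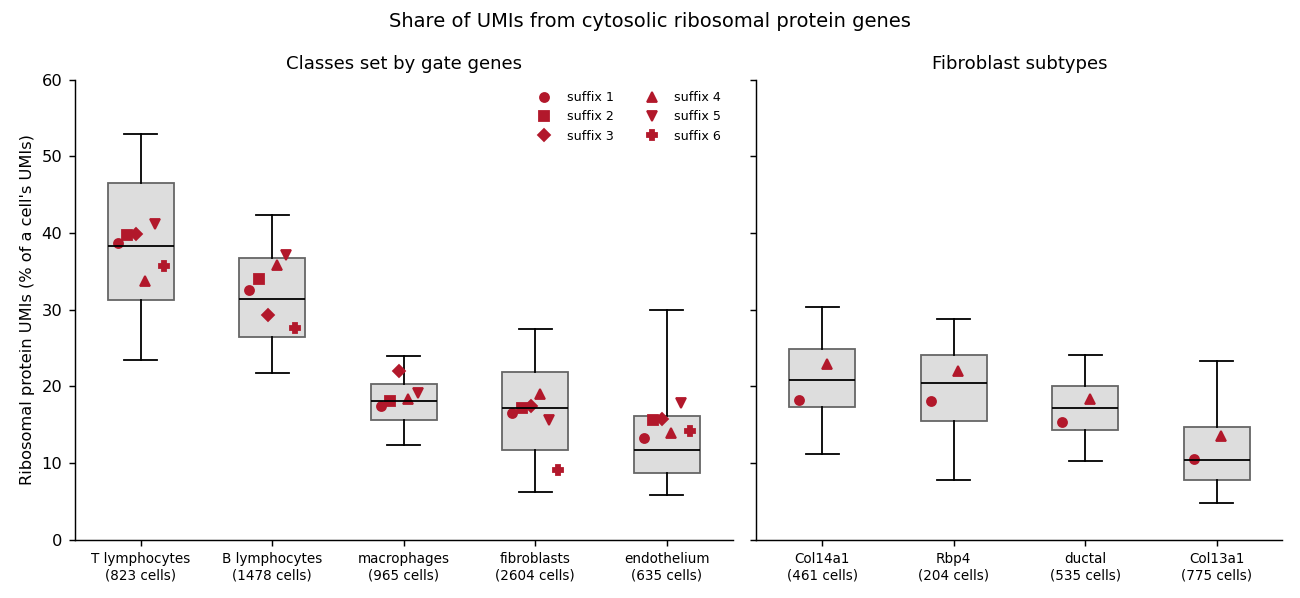
Ribosomal protein UMIs as a percent of a cell's UMIs (y axis) by class (left) and by fibroblast subtype (right). Boxes span the quartiles over cells with the median as a line, whiskers the 5th to 95th percentile, and red symbols are the pooled shares of suffixes with 30 or more cells; both lymphocyte classes lie above the other 3 in every suffix shown.

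Together, lymphocytes stood at 35.4% and the other gated cells at 18.2%, a ratio of 1.94. Within each class, the deepest cells had a higher share than the shallowest. In fibroblasts it was 13.9%, 16.0% and 21.3% in the shallowest, middle and deepest of 3 equal sets of cells ordered by UMIs, and in T lymphocytes 36.1%, 39.1% and 40.1%. In B lymphocytes the rise was not steady, at 31.0%, 30.2% and 33.8%. B lymphocytes had a median of 2064.5 UMIs per cell and macrophages 4992. The part of depth in the differences between classes was not tested. In endothelium, 579 cells with a UMI of Cdh5, the endothelial cadherin, stood at 13.8%, while 56 cells that passed on Pecam1 alone stood at 30.2%.

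Within lymphocytes the share differed between subgates that the rule did not use. T cells with a UMI of Cd8a or Cd8b1 and none of Cd4 stood at 44.7% (275 cells), those with Cd4 only at 36.6% (89 cells), and those with neither at 35.3% (449 cells). The Cd8 cells stood above both of the others in all 6 suffixes, though suffix 1 held only 2 of the Cd4 cells. B cells with Fcer2a, the low-affinity IgE receptor of mature B cells, and no Vpreb3 stood at 34.8% (227 cells). B cells with Vpreb3, a relative of the surrogate light chain genes, and no Fcer2a stood at 28.6% (698 cells). Those with both genes stood at 34.7% (153 cells) and those with neither at 35.8% (400 cells), so only the cells with Vpreb3 alone stood lower. Of the cells with Vpreb3 alone, 390 lay in suffix 3 and 162 in suffix 6. There they stood at 27.3% and 26.4%, against 33.2% in the cells with Fcer2a alone of each. In the other suffixes the gap was smaller or absent: in suffixes 1, 2, 4 and 5 the Vpreb3 cells stood at 31.6%, 31.8%, 33.4% and 35.1%, and the Fcer2a cells at 31.4%, 33.3%, 34.8% and 37.7%. Cells with 2 or more UMIs of the cycle genes Mki67 and Top2a had no common direction over classes. Cycling T lymphocytes stood at 26.2% (25 cells) against 40.03% in the other T lymphocytes, and were lower in all 6 suffixes, with 1 to 9 cycling cells in each. Cycling B lymphocytes stood at 28.0% (19 cells) against 32.4% in the other B lymphocytes, but all lay in suffixes 3 and 6, where B lymphocytes were lowest; in suffix 3 they had 29.1% (14 cells) against 29.3%, and in suffix 6 25.3% (5 cells) against 27.8%. Cycling macrophages stood at 19.9% (36 cells) against 18.6% in the other macrophages, and 3 cycling fibroblasts at 26.5% against 18.5%. By suffix, cycling macrophages were higher in suffixes 1, 2 and 5 and lower in suffixes 3, 4 and 6, with 3 to 10 cycling cells in each. Cycling cells were also deeper, with a median of 7337.5 UMIs against 4950 in the other macrophages, and 8623 against 2947 in fibroblasts. The part of depth here was not tested.

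Nearly all members shared the difference between lymphocytes and the other classes. A member was counted as higher or lower at 1.5-fold or more in CPM with an exact 95% interval that excludes a ratio of 1, among genes at 50 CPM or more on either side. Of 82 members measured, 75 were higher in lymphocytes and 1 was lower; of all 3876 genes measured, 21.1% were higher and 42.9% lower. The median log2 ratio was 0.96 over the members and -0.36 over all genes. Each of the 82 had its pooled sign in all 6 suffixes. The other 5 members, Rpl3l, Rpl7l1, Rpl10l, Rpl39l and Rps19bp1, were under 50 CPM on both sides.

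Rps27rt had the highest pooled ratio, 5344 CPM in lymphocytes against 1147 CPM in the other classes, 4.66-fold. Its pooled log2 ratio of 2.22 was not reached in any suffix, where it was 1.39 to 1.89; its level also differed between suffixes, as described further on. Rpl12, a protein at the base of the ribosomal stalk, had 3613 CPM in lymphocytes against 1177 CPM in the other classes, a log2 ratio of 1.62 (95% interval 1.59 to 1.65). Rps27, a zinc-finger protein of the small subunit, had 13331 CPM in lymphocytes against 4592 CPM in the others, and Rps15a had 6129 CPM against 2246 CPM. Rpl6l, an annotated processed pseudogene copy of Rpl6, had 1159 CPM in lymphocytes against 373 CPM in the others. Like Rps27rt, Rpl6l also differed between suffixes, as described further on. Rps27rt, Rpl12, Rps27, Rps15a and Rpl6l were the 5 highest by the pooled ratio.

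At the other end, Rps27l, a paralogue of Rps27 known as a target of p53, had 206 CPM in lymphocytes against 515 CPM in the other classes, 2.497-fold lower. Rps19bp1 had 37.0 CPM in lymphocytes against 43.7 CPM in the others, and Rpl7l1 42.4 CPM against 49.9 CPM. Rpl10, a protein that joins the large subunit late in its maturation, had 3822 CPM in lymphocytes against 3416 CPM in the others (log2 ratio 0.16). Rpl41, a very short basic peptide of the large subunit, had 7679 CPM against 6256 CPM (log2 ratio 0.30). Counted as a share of ribosomal protein UMIs only, 3 members were past the fold upward and 3 downward in lymphocytes.

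Macrophages, endothelium and fibroblasts were mostly lower in these genes when each was set against all other gated cells. That reference holds the lymphocytes, so part of the lower counts follows from the high lymphocyte share already given. Among themselves these classes had shares of 18.7% (macrophages), 18.5% (fibroblasts) and 15.4% (endothelium), and their members were not compared without lymphocytes. In macrophages, 1 of 82 members was higher and 36 were lower than in the other classes, where 34.0% of all genes were higher and 29.2% lower; 55 of the 82 had the pooled sign in all 5 suffixes with 50 or more cells on both sides. In endothelium, none of 83 was higher and 52 were lower, against 32.9% and 18.6% of all genes; with the gate narrowed to cells with Cdh5, a setting chosen after the data were seen, 70 members passed the fold. The pooled sign held in all 6 suffixes for 80 of the 83. In fibroblasts, none of 83 was higher and 34 were lower, against 31.3% and 29.3% of all genes. The fibroblast count depends on what fibroblasts are set against: it was 62 without suffix 4, 17 without suffix 5 and 11 with the other classes weighted equally. Only suffixes 1 and 4 held 50 or more cells on both sides, and 42 of 83 members had the pooled sign in both.

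In macrophages the higher member was Rps27l, with 700 CPM in macrophages against 342 CPM in the other classes, 2.05-fold. Rpl41 followed at 8717 CPM in macrophages against 6109 CPM in the others (log2 ratio 0.51). Among the lowest were 3 core proteins of the large subunit. Rpl4, which lines the tunnel through which the new peptide leaves, had 840 CPM in macrophages against 1961 CPM in the others, 2.33-fold lower. Rpl3, which reaches toward the peptidyl transferase centre, had 957 CPM against 2058 CPM, and Rpl21 had 1641 CPM against 3372 CPM.

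In endothelium the lowest ratios were those of Rpsa, with 1046 CPM in endothelium against 2079 CPM in the other classes, and of Rpl12, with 1018 CPM against 1992 CPM. Rpsa is a protein of the small subunit also known as a laminin receptor. In fibroblasts, Rplp2, a P protein of the stalk, had 2562 CPM against 4907 CPM in the other classes. Rpl22l1 had the highest ratio there, with 1067 CPM in fibroblasts against 857 CPM in the others (log2 ratio 0.32).

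Between T and B lymphocytes few members differed. Of 82 members, 5 were higher in T lymphocytes and none lower. This was a smaller share than the 13.0% of 2842 genes that were higher and the 24.8% that were lower. The median log2 ratio over the members was 0.27. Counted as a share of ribosomal protein UMIs only, none was past the fold in either direction. The 5 members higher in CPM were Rplp1, Rplp0, Rplp2 and Rpl12, which build the stalk and its base, and Rpsa. Rplp1 had 7974 CPM in T lymphocytes against 4569 CPM in B lymphocytes, 1.75-fold (log2 ratio 0.80, 95% interval 0.77 to 0.83). Rplp0, the scaffold of the stalk, had 5834 CPM in T lymphocytes against 3788 CPM in B lymphocytes, and its log2 ratio was 0.48 to 0.70 over the 4 suffixes with 50 or more cells of each class. Rplp2 had 7527 CPM in T lymphocytes against 4964 CPM in B lymphocytes. Rpl28, the lowest, had 2512 CPM in T lymphocytes against 2637 CPM in B lymphocytes.

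To set aside the overall share, each member was expressed as a percent of ribosomal protein UMIs in its class. The fold between the highest and lowest of the 5 classes, over the 84 members with at least 500 UMIs, had a median of 1.46 and ran from 1.10 to 7.03. It was 1.5 or more for 36 members and 2 or more for 8. With each suffix weighted equally, a setting chosen after the data were seen, 30 passed 1.5, of which 29 were among the 36. Among the narrowest were Rpl30 (1.10), Rps20 (1.15), Rpl34 (1.17) and Rpl10a (1.17). Rps29, the member with most UMIs, was also narrow at 1.25.

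**Figure D2:**
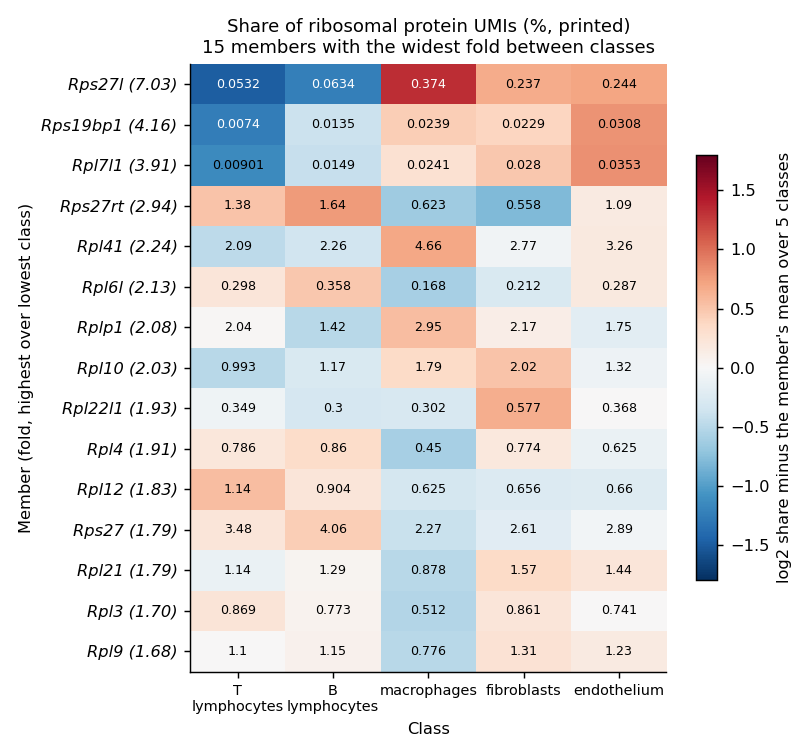
Share of ribosomal protein UMIs (printed, in percent) of the 15 members with the widest fold between classes, given in parentheses. Color is the log2 share minus the member's mean over the 5 classes; Rps27l is lowest in both lymphocyte classes and highest in macrophages, while Rps27rt is highest in B lymphocytes and lowest in fibroblasts.

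Rps27l (chr9:66946086-66949516, plus strand) was the widest. It held 0.374% of ribosomal protein UMIs in macrophages, 0.244% in endothelium, 0.237% in fibroblasts, 0.0634% in B lymphocytes and 0.0532% in T lymphocytes. Over suffixes with 30 or more cells, its share was 0.307% to 0.407% in macrophages and 0.0438% to 0.0951% in T lymphocytes, so these did not overlap. Of its UMIs and those of Rps27 together, Rps27l made up 14.2% in macrophages, 8.35% in fibroblasts, 7.81% in endothelium, 1.54% in B lymphocytes and 1.51% in T lymphocytes. After each cell was thinned to 1000 UMIs, 48.0% of macrophages and 17.9% of T lymphocytes held a Rps27l UMI, against 89.6% and 42.9% unthinned.

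Rpl41 was 4.66% of ribosomal protein UMIs in macrophages, 3.26% in endothelium, 2.77% in fibroblasts, 2.26% in B lymphocytes and 2.09% in T lymphocytes. Macrophages had 4.10% to 5.03% over the suffixes and T lymphocytes 2.01% to 2.38%, without overlap. Rplp1 was 2.95% in macrophages and 1.42% in B lymphocytes, and Rpl10 2.02% in fibroblasts and 0.993% in T lymphocytes. Among classes with 30 or more cells, Rpl10 was highest in fibroblasts and lowest in T lymphocytes in each of the 6 suffixes. Of the members on the X chromosome, Rpl10 varied 2.03-fold, while Rps4x, Rpl36a and Rpl39 varied 1.46-, 1.35- and 1.32-fold.

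Rpl22l1, the paralogue of the RNA-binding protein Rpl22, stood apart in fibroblasts. It was 0.577% of ribosomal protein UMIs in fibroblasts, 0.368% in endothelium, 0.349% in T lymphocytes, 0.302% in macrophages and 0.300% in B lymphocytes. Its share over suffixes was 0.564% to 0.668% in fibroblasts, above the 0.432% reached in any suffix of any other class with 30 or more cells. Of the UMIs of Rpl22l1 and Rpl22 together, Rpl22l1 made up 49.9% in fibroblasts (95% interval 49.2 to 50.7), 41.6% in T lymphocytes, 40.4% in endothelium, 36.8% in B lymphocytes and 31.6% in macrophages.

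**Figure D3:**
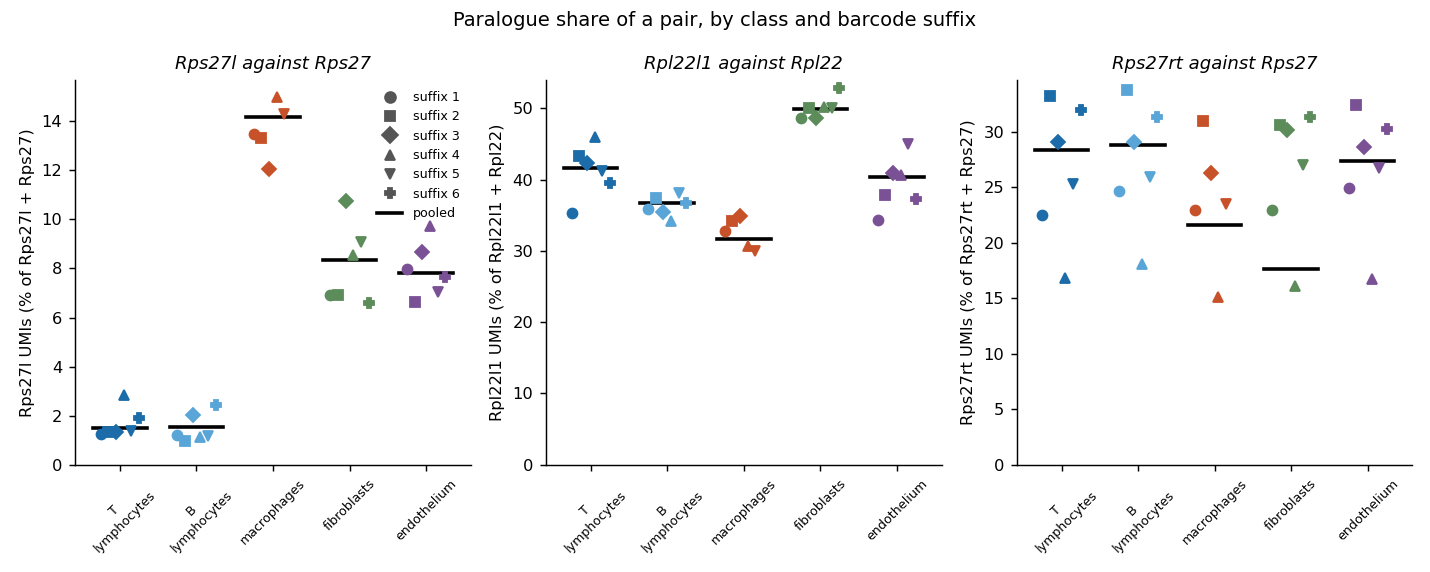
Paralogue UMIs as a percent of the pair (y axis) in 5 classes, with a symbol for each suffix with 30 or more cells and a black line for the pooled value. Within suffixes, Rps27l against Rps27 is lowest in both lymphocyte classes and highest in macrophages. Rpl22l1 against Rpl22 is highest in fibroblasts, while the values of the other classes partly overlap. Rps27rt against Rps27 separates suffixes, with suffix 4 lowest in all 5 classes.

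Rps27rt (chr9:114982366-114982739, minus strand) varied between suffixes as well as between classes. Pooled, it was 1.64% of ribosomal protein UMIs in B lymphocytes, 1.38% in T lymphocytes, 1.09% in endothelium, 0.623% in macrophages and 0.558% in fibroblasts. Within a class, the highest suffix was 2.28- to 2.81-fold over the lowest, and suffix 4, which held 1897 of the 2604 fibroblasts, was lowest in all 5. Of Rps27rt and Rps27 UMIs together, Rps27rt was 33.8% in B lymphocytes and 30.6% in fibroblasts of suffix 2, and 18.1% in B lymphocytes and 16.1% in fibroblasts of suffix 4. The pooled values were 28.8% in B lymphocytes and 17.6% in fibroblasts, so the pooled gap was wider than the gap in either suffix. With suffixes weighted equally the fold of Rps27rt was 2.18, against 2.94 pooled, and its lowest class was macrophages. Rpl6l was lowest in suffix 4 in every class but fibroblasts. Of Rpl6l and Rpl6 UMIs together, Rpl6l was 23.3% in B lymphocytes and 14.9% in fibroblasts pooled. It was 14.3% and 14.2% in these classes in suffix 4, and 26.0% and 21.1% in suffix 2. The fold of Rpl6l was 1.72 with suffixes weighted equally, against 2.13 pooled.

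Near-identical copies limit what some counts mean. Of all 60-base words in the last 300 bases of a member's longest coding transcript (GENCODE release M21), 88.0% in Rps27rt are also in Rps27, and all of those in Rps27 are in Rps27rt. All of the words of Rpl6l are in Rpl6, and all of those of Rpl10 in Rpl10-ps3, which is a row of the table. Rpl10-ps3 had 1785 CPM in T lymphocytes, 1767 CPM in B lymphocytes, 1098 CPM in macrophages, 842 CPM in fibroblasts and 831 CPM in endothelium. The fold of Rpl10 between classes was 2.03 in the main setting and 1.73 when the -ps rows were added to their genes. Over all alternative settings it was 1.73 to 2.13. Rplp1 shares 61.4% with Gm10073 and Rpl41 57.3% with Gm10076, both rows of the table. Rpl22l1 shares 60.2% with Gm15421. Rps27l, Rpl12, Rpl4, Rpl21 and Rpl22 share none with any other gene. At least 50% of the words were shared with some other gene for 37 of 87 members, and the split of reads between such copies is uncertain.

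Rpl3l, the muscle paralogue of Rpl3, was found in macrophages. Of 226 Rpl3l UMIs in gated cells, 218 lay in macrophages (44.6 CPM), 4 in B lymphocytes, 2 in endothelium and 1 each in T lymphocytes and fibroblasts. Of macrophages, 18.1% held a UMI (95% interval 15.8 to 20.7), against 0.315% of endothelial cells, 0.271% of B lymphocytes, 0.122% of T lymphocytes and 0.0384% of fibroblasts. Thinned to 1000 UMIs, 4.09% of macrophages and at most 0.175% of any other class held one. Rpl3l UMIs occurred in macrophages of all 6 suffixes, at 3.62% to 6.42% of the pair with Rpl3. Rpl39l, with 18 UMIs in gated cells, had 13 in macrophages, and Rpl10l had 4 in all.

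Among fibroblasts, the share of UMIs set the Col13a1 subtype apart. Subtypes were assigned from marker lists. The share was 22.0% in Col14a1 fibroblasts (461 cells), 21.2% in Rbp4 fibroblasts (204 cells), 17.7% in ductal fibroblasts (535 cells) and 13.2% in Col13a1 fibroblasts (775 cells). Smaller groups stood at 21.4% (Cdh22, 28 cells), 20.6% (Adh7, 13 cells) and 9.78% (mural, 20 cells), and 568 unassigned fibroblasts at 20.997%. In suffixes 1 and 4, which held most fibroblasts, Col14a1 fibroblasts had 18.3% and 22.9%, Rbp4 fibroblasts 18.1% and 22.0%, ductal fibroblasts 15.3% and 18.4%, and Col13a1 fibroblasts 10.5% and 13.6%. The 4 kept the same order in both, and each was higher in suffix 4. Median depths were 3616, 4002.5, 2444 and 2767 UMIs. Col14a1 and Rbp4 fibroblasts were deeper than Col13a1 fibroblasts, which had the lowest share, and these were deeper than ductal fibroblasts. Within each of these subtypes the deepest cells had a higher share than the shallowest, for example 16.1% against 9.82% in Col13a1 fibroblasts. The part of depth in the order of the subtypes was not tested.

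Of 83 members, none was higher and 52 were lower in Col13a1 fibroblasts than in the other fibroblasts, where 17.1% of all genes were higher and 12.4% lower. Rplp0 was lowest, with 1032 CPM in Col13a1 fibroblasts against 2284 CPM in the other fibroblasts, 2.21-fold. In Col14a1 fibroblasts 2 were higher and none lower, a smaller share than the 8.73% and 12.0% of all genes: Rplp0, with 2782 CPM against 1740 CPM in the other fibroblasts, and Rpl22l1, with 1525 CPM against 956 CPM. In ductal fibroblasts Rpl7l1 was the 1 higher member and none was lower, against 13.1% and 15.9%. In Rbp4 fibroblasts none of 83 passed in either direction, against 2.69% and 5.44%.

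As a share of ribosomal protein UMIs, members varied less between these 4 subtypes than between classes, with a median fold of 1.18 and 6 at 1.5 or more. They were Rpl7l1, Rps19bp1, Rplp0, Rps27l, Rps21 and Rpl22l1. Rps27l was 0.303% in Col13a1 and 0.194% in Col14a1 fibroblasts, and Rps21, a small-subunit protein, 1.66% in Col13a1 and 1.06% in Col14a1 fibroblasts. Of the Rpl22l1 and Rpl22 pair, Rpl22l1 was 56.7% in Col14a1 fibroblasts, 47.3% in Rbp4, 46.8% in Col13a1 and 43.8% in ductal fibroblasts.

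The balance between subunits also differed. UMIs of Rps members per UMI of Rpl members were 0.865 in B lymphocytes, 0.856 in T lymphocytes, 0.776 in endothelium, 0.753 in macrophages and 0.741 in fibroblasts. The fold between the highest and lowest class was 1.17. These are ratios of counts over genes with different numbers of members, not of subunits.

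Other TOP mRNAs, which encode translation factors and their partners, had the pattern of the members, and mitochondrial ribosomal proteins did not. In lymphocytes 15 of 19 other TOP mRNAs were higher and none lower, with a median log2 ratio of 0.95, where 21.1% of all genes were higher and 42.9% lower. Eef1a1, the elongation factor that delivers aminoacyl-tRNA, had 6797 CPM in lymphocytes against 3529 CPM in the other classes, and Eef2, which moves the ribosome along, had 1757 CPM against 813 CPM. Of 37 mitochondrial ribosomal protein genes measured, 1 was higher and 9 were lower, both smaller shares than those of all genes, with a median of -0.17 against -0.36 for all genes. Of ribosome biogenesis genes, 4 of 9 were higher and 1 lower; Nop56, a core protein of box C/D snoRNPs, had 84.9 CPM in lymphocytes against 38.5 CPM in the others.

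Of 8 genes of TOR and Myc control measured in lymphocytes, 5 were lower and none higher, beside the 42.9% of all genes that were lower, so the count is too small to set the list apart. Eif4ebp1, a TOR target that holds back cap-dependent translation, had 51.6 CPM in lymphocytes against 141 CPM in the other classes. In fibroblasts Eif4ebp1 had 182 CPM against 69.7 CPM in the others, and Larp1 had 39.1 CPM against 68.7 CPM. In macrophages Larp1 had 107 CPM against 42.8 CPM. In macrophages 1 of 19 other TOP mRNAs was higher and 8 were lower, against 34.0% and 29.2% of all genes; Pabpc1, the poly(A)-binding protein, was the higher, with 781 CPM against 520 CPM in the others.

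**Figure D4:**
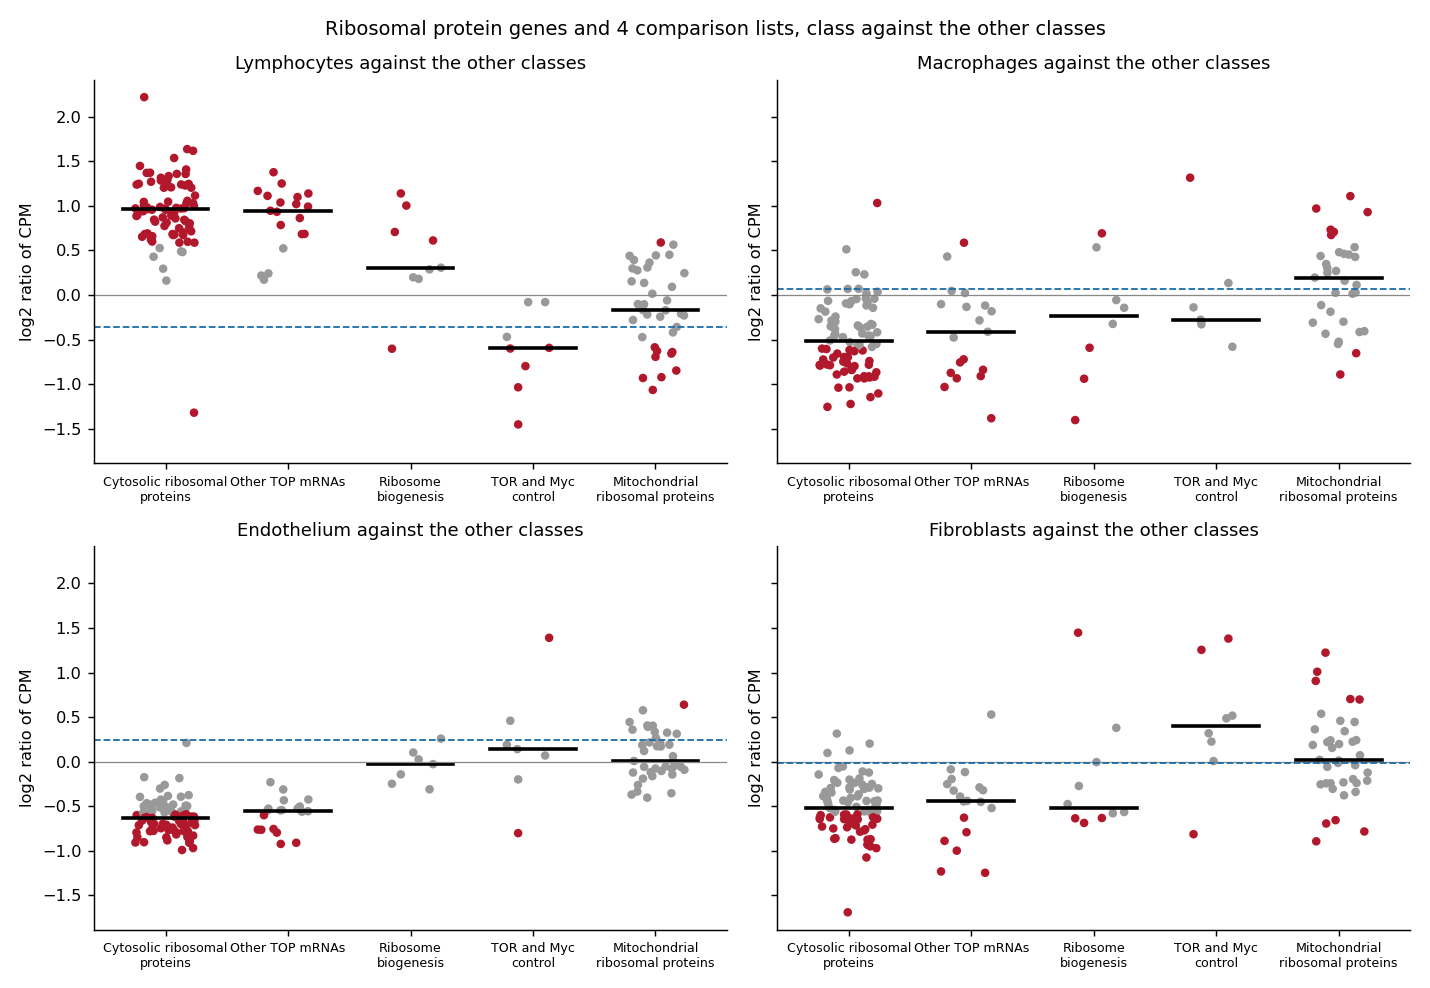
The log2 ratio of CPM (y axis) of each measured gene of 5 lists in a class against the other classes; red points are past 1.5-fold with an interval excluding 1, black lines are list medians and the dashed line is the median of all genes. In lymphocytes the medians of the cytosolic ribosomal proteins (0.96) and other TOP mRNAs (0.95) lie above the median of all genes (-0.36).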

How the data were processed

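Per the labels' protocols, single cells were captured with the 10x Genomics 3′ v2 kit. The deposited table holds the authors' UMI counts per gene and barcode, unnormalized; the submitters' processing notes list Cell Ranger 1.3.0, STAR 2.5.1 and the mouse build mm10. For cell calling, a method was not given in the sources used here. A normalized table was left aside.

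UMIs were summed over the cells of a class. Shares have exact binomial intervals and ratios of CPM exact conditional binomial intervals at 95% (scipy 1.17.1, numpy 2.4.6, pandas 2.3.3). No test was made, because the barcodes are not tied to samples. A fibroblast took a subtype at 2 or more UMIs of its markers and at least 2 times the next list. Barcodes in more than 1 gate were left out as possible doublets; Scrublet (scanpy 1.11.5) was an alternative. The call rule was tested on simulated counts. Coordinates are from GENCODE release M21 (GRCm38, the same assembly as mm10).

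Members, lists and gates were chosen with earlier results of these data known. Named genes were the 15 widest, 5 narrowest and 5 most abundant members, the 5 highest and 5 lowest ratios per class, the 8 widest members over fibroblast subtypes, paralogues, members on the X chromosome and the leading genes of the comparison lists; not all are printed, and some withheld items are not reported here.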

Additional observations from a re-analysis of the deposited data

Results flagged for a closer look

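Rows named -ps, which the name rule leaves out, held 341688 UMIs in 16 rows, a signal in data outside the main measurement. They made up 1.65% of UMIs in T lymphocytes, 1.43% in B lymphocytes, 0.645% in endothelium, 0.625% in macrophages and 0.51% in fibroblasts. Per 100.0 UMIs of members this was 4.22 in T lymphocytes, 4.43 in B lymphocytes, 4.18 in endothelium, 3.34 in macrophages and 2.76 in fibroblasts. The rows with most UMIs were Rpl23a-ps3 (60690), Rps12-ps3 (57815) and Rpl10-ps3 (50370).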

How the results depend on the processing

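No paired analysis was possible because no barcode is tied to a labelled sample and no result comes from a test. The ratio of the lymphocyte share to that of the other classes was 1.84 to 2.05 over the alternatives, the ratio of the highest to the lowest fibroblast subtype share 1.60 to 1.79, the fold between subunit ratios 1.15 to 1.19, and the count of members varying 1.5-fold between classes 24 to 43. Counts of members past the fold moved more. At a fold of 2 they were 34 in lymphocytes, 7 in macrophages, 0 in endothelium and 2 in fibroblasts, and as a share of ribosomal protein UMIs only 6, 10, 1 and 5. The endothelial count was 31 when barcodes in several gates went to the gate with most UMIs. The fibroblast count was 17 at 1000 genes and 5% mitochondrial UMIs, 17 with the gate UMIs doubled and 11 with the other classes weighted equally (by the fold alone, with no interval); leaving out a suffix gave 17 to 62. The cause was not tested. No named ratio changed sign among those past the fold, and only Rpl41 in macrophages crossed 1.5-fold, with log2 ratios of 0.59 with cells weighted equally and 0.60 thinned. Scrublet marked 75 of 9994 barcodes. Depth limits Rpl3l, Rpl10l and Rpl39l, which have few UMIs.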
